A study of Mus musculus with 3 samples.

Results

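Genes of neutrophil granules and neutrophil maturation were followed through 3 droplet libraries of mouse glioblastoma (GBM): *S100a8*, *S100a9*, *Lcn2*, *Ltf*, *Ngp*, *Camp*, *Mmp8*, *Mmp9*, *Retnlg* and *Wfdc21*. These members are 10 of the 31053 genes counted, and were picked by symbol from measured values of these same libraries, because their RNA stood high in neutrophils and was counted at low levels in other cell classes. Their height in neutrophils and the joint presence of early and late genes in 1 cell are therefore described here without a test. The cells behind these values are 165 neutrophils of 4344 cells kept.

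The libraries came from C57BL/6 female mice, 6 to 8 weeks old at purchase, whose right striatum had received brain tumor-initiating cells (BTICs) of *Nf1*- and *Trp53*-mutant NPcis origin that carry luciferase and GFP. Niacin (vitamin B3) was injected into the peritoneum at 100 mg/kg each day from day 7 after implantation, and the vehicle group received saline in the same way. At week 4, a 2 mm piece of brain around the injection site was taken from each mouse, pieces were pooled per library, myelin was removed on a Percoll gradient and live cells were sorted, so that neutrophils of blood and of tissue were not told apart. The vehicle group has 1 library (replicate 2, from 5 mice) and the niacin group 2 (replicates 1 and 2, from 10 mice), although the labels also speak of 4 brain tissues per pool, and no mouse can be traced within a pool.

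Neutrophils build their granules in order while they mature in bone marrow. Primary granules with myeloperoxidase come first, specific granules with lactoferrin (*Ltf*), neutrophilic granule protein (*Ngp*) and the cathelicidin peptide (*Camp*) come next, and gelatinase granules with *Mmp9* come late. Transcription of the specific granule genes needs C/EBP-epsilon and is largely switched off before a neutrophil enters the blood, so RNA of *Ngp*, *Camp* and *Ltf* is known as a mark of immature cells. *S100a8* and *S100a9* encode the subunits of calprotectin, a calcium-binding protein that fills the cytosol of the cell. *Lcn2* encodes a siderophore-binding lipocalin, *Mmp8* a collagenase, *Retnlg* a resistin-like secreted protein of maturing and mature neutrophils, and *Wfdc21* a small protein with a whey acidic protein domain.

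The sequence before the transcription start is shown for the 3 early genes and for *Retnlg*, because the results set their levels side by side in single cells. Windows of 250 bases before each start were taken from RefSeq on GRCm38.p6, and 8 of the 10 members had an entry (*Mmp9* and *Wfdc21* did not). The first 4 lines hold only bases that lie before the annotated gene, and capitals mark a match to the C/EBP-type motif TTNNGCAA or, on the other strand, TTGCNNAA. *Ngp* is shown at chr9:110419558-110419746 (+), *Camp* at chr9:109849618-109849706 (-), *Ltf* at chr9:111019042-111019270 (+) and *Retnlg* at chr16:48872358-48872607 (+). The last line is a second *Ngp* match with its neighbours, at chr9:110419778-110419807 (+), 11 bases before the RefSeq start but within the gene as GENCODE annotates it.
Ngp: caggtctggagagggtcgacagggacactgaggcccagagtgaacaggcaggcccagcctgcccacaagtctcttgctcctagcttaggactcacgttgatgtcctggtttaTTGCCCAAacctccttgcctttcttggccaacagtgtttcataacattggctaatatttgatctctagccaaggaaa
Camp: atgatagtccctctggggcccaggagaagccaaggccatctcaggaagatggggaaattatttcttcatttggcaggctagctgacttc
Ltf: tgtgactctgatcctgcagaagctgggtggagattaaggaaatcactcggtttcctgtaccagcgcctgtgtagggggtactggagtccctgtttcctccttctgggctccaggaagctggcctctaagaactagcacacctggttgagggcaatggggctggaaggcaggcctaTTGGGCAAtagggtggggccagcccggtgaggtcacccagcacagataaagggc
Retnlg: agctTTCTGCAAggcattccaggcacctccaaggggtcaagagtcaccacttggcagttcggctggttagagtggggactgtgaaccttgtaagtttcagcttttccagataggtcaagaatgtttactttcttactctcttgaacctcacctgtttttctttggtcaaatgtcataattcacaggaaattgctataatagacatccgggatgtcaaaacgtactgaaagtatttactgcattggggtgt
Ngp second match: tttatgtcaccggcagttcTTGGGCAAggc

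The motif was present in 6 of 8 member windows, against 9.57% of the 32536 RefSeq windows of the same length. In *Ngp* it lay 138 and 11 bases before the start, in *Ltf* 75 and in *Mmp8* 19, while in *Lcn2*, *S100a9* and *Retnlg* it lay farther out, at 216, 236 and 246 bases. The whole *Lcn2* window, though before the RefSeq start, lies within the gene as GENCODE annotates it. The windows of *Camp* and *S100a8* held none. A PU.1-type motif (GAGGAA or TTCCTC) was present in 4 of 8 windows against 23.4% of all, and a TATA-type motif (TATAAA or TTTATA) in 1 of 8 against 12.3%. These are matches of letters in a window and no measure of binding.

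On the genome, 4 members lie on chromosome 9. *Mmp8* is at chr9:7558456-7568485, *Camp* at chr9:109847379-109849617, *Ngp* at chr9:110419747-110423012 and *Ltf* at chr9:111019271-111042767. *S100a8* (chr3:90668978-90670035) and *S100a9* (chr3:90692632-90695721) are neighbours on opposite strands. *Lcn2* is at chr2:32384633-32388252 and *Mmp9* at chr2:164940780-164955850, *Wfdc21* at chr11:83746940-83752642 and *Retnlg* at chr16:48872621-48874496. All are protein-coding genes.

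The files held 6947 entries of cell barcodes, with 8301228 to 10359526 unique molecular identifiers (UMIs, 1 for each captured RNA molecule) per library. Of 5571 distinct barcodes, 924 were present in more than 1 library and 452 in all 3. A barcode was kept in the library where it had the most UMIs, and its other entries had medians of only 638 to 653 UMIs. A cell was called a neutrophil from at least 3 of 26 marker genes, none of them a member, with at least 2 times as many markers as for any other class. This gave 72 neutrophils in the vehicle library (5.44% of its cells, exact binomial 95% interval 4.28 to 6.80), 50 in niacin replicate 1 (3.52%, 2.62 to 4.61) and 43 in niacin replicate 2 (2.69%, 1.95 to 3.61). Another 6, 6 and 3 cells had at least 3 neutrophil markers but missed the 2-fold rule. All intervals here cover counting error only, and no UMI interval covers the spread between mice.

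Since the markers made the call, their levels describe the neutrophils and do not test the label. *Csf3r*, the receptor for granulocyte colony-stimulating factor, had a UMI in 94.4%, 84% and 83.7% of the neutrophils of vehicle replicate 2, niacin replicate 1 and niacin replicate 2, the order used for every set of 3 values below, at levels of 2280, 674 and 335 UMIs per 1000000 UMIs (CPM). *Cxcr2*, a chemokine receptor of mature neutrophils, had one in 80.6%, 90% and 86.0%, at 1697, 633 and 462 CPM. *Ly6g* ran the other way, with 11.1%, 64% and 93.0% and 296, 765 and 1044 CPM, and so did *Pglyrp1*, a peptidoglycan-binding granule protein, at 1281, 2753 and 2585 CPM. *Mpo* and *Elane*, primary granule genes of promyelocytes, had at most 9.56 CPM in a library, and *Cd79a* of B cells was at 0 in all 3. The 26 markers summed to 12406, 11288 and 10067 CPM, with 25 detected in each library, so that single markers differed more than their sum.

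The neutrophils differed between libraries in more than treatment. Their median depth was 2227.5, 5915.5 and 9148 UMIs per cell, and their median number of detected markers was 7, 13.5 and 14. Barcodes shared with another library made up 5, 20 and 17 of them. At least 3 erythroid markers were present in 0, 27 and 11 of them, with a summed level of the 7 erythroid markers of 33.5, 887 and 281 CPM. *Alas2* of that list was at 0 in all 3 libraries and *Hba-a1* was at 0 in the vehicle library. At least 3 monocyte, macrophage or dendritic cell markers were present in 12, 22 and 23 neutrophils, with a summed level of 6041, 12754 and 14270 CPM, of which *Lyz2*, which neutrophils also express, made up 4722, 11699 and 13000 CPM. The part of these differences in the results below was not tested, except where values without such cells are given.

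The 10 members together made up 19.7%, 44.0% and 48.8% of all UMIs in neutrophils. Since the kit reads each RNA molecule at its 3′ end, levels of different genes were compared as UMIs without division by gene length. *S100a8* and *S100a9* led in every library. *S100a8* stood at 73180 CPM (exact Poisson 95% interval 72026 to 74349), 164037 (162843 to 165237) and 183218 CPM (181987 to 184456). *S100a9*, its partner in calprotectin, stood at 74122, 176139 and 192192 CPM. The ratio of *S100a9* to *S100a8* was 1.01, 1.07 and 1.05, so the pair stood nearly level in each library.

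*Ngp* and *Camp* came next in each library. *Ngp* stood at 16507, 27791 and 33673 CPM and *Camp* at 14390, 23767 and 32245 CPM. *Ltf* stood at 6643, 7834 and 9103 CPM, below *Lcn2* and *Retnlg* in both niacin libraries. The order *Ngp*, *Camp*, *Ltf* was the same in each library, although the *Ngp* and *Camp* intervals in niacin replicate 2, at 33147 to 34206 and 31730 to 32766 CPM, lay close together.

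*Lcn2* stood at 5644, 15125 and 13291 CPM, so that it was below *Ltf* in the vehicle library and above it in both niacin libraries. *Wfdc21* stood at 2887, 5687 and 6099 CPM. *Mmp8* stood at 717, 1936 and 2040 CPM, the lowest member in the vehicle library. *Mmp9*, the gelatinase of late granules, was the flat member, at 1754, 1850 and 1679 CPM with overlapping intervals of 1579 to 1943, 1725 to 1981 and 1563 to 1802 CPM. *Retnlg* varied most, from 1625 CPM (1457 to 1807) in the vehicle library to 15795 (15426 to 16170) and 14333 CPM (13990 to 14682) in niacin replicates 1 and 2. In the vehicle library its interval overlapped that of *Mmp9*, in niacin replicate 1 it overlapped that of *Lcn2* (14764 to 15493 CPM), and in niacin replicate 2 it lay above that of *Lcn2* (12961 to 13628 CPM).

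**Figure D1:**
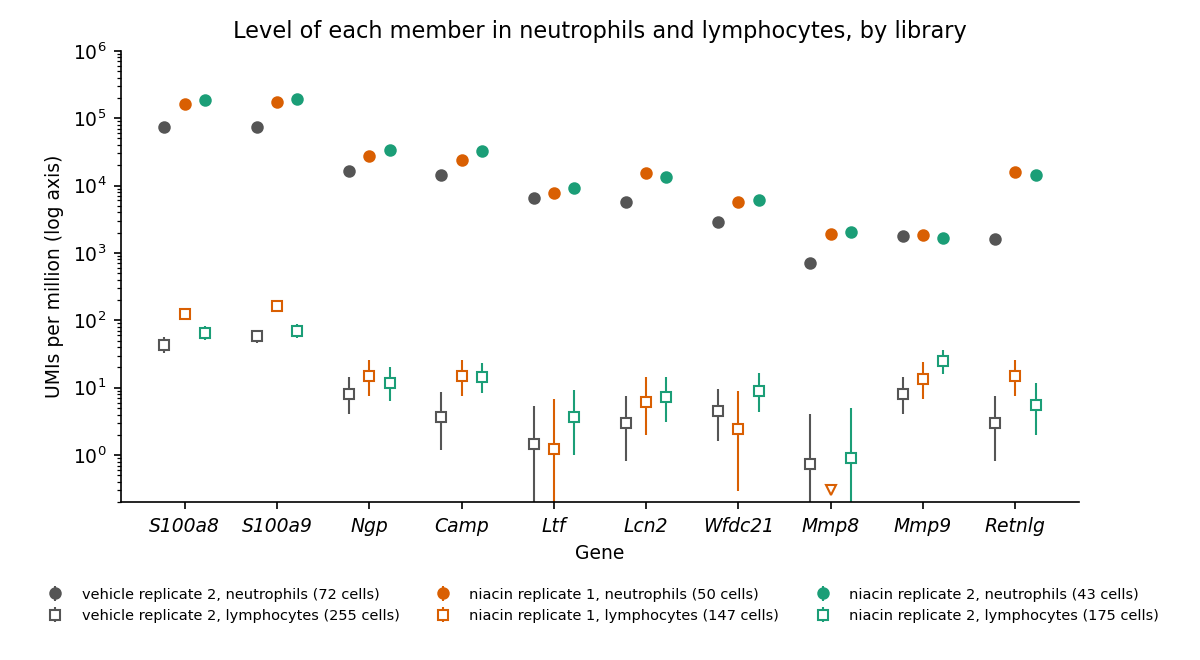
Level of each member in CPM (log axis) in neutrophils (filled circles) and in lymphocytes (open squares) of each library, with exact Poisson 95% intervals (within the circles for neutrophils), where the open triangle marks a gene at 0. Every member is higher in neutrophils than in lymphocytes of the same library, *Mmp9* is level across the neutrophils of the 3 libraries (1679 to 1850) and *Retnlg* is lowest in vehicle replicate 2 (1625 against 14333 and 15795).

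The share of neutrophils with at least 1 UMI of a member was read with depth held equal. After each cell was thinned to 1000 UMIs, 50, 44 and 42 neutrophils remained and 22, 6 and 1 shallower ones were left out. *S100a8* was then present in 94%, 95.5% and 100% of neutrophils. *Ngp* was present in 16%, 54.5% and 73.8% (16.7%, 64% and 88.4% without thinning) and *Lcn2* in 30%, 81.8% and 95.2% (30.6%, 88% and 97.7%). *Retnlg* was present in 22%, 70.5% and 71.4% (30.6%, 84% and 97.7%). *Mmp9* was present in 60%, 75% and 69.0% (73.6%, 90% and 97.7%). In lymphocytes, which should lack these genes, the thinned shares were 2.05%, 2.92% and 1.16% for *Ngp*, 0.820%, 2.19% and 0.581% for *Retnlg* and 6.56%, 18.2% and 6.40% for *S100a8*, at median depths of 4673, 5398 and 6022 UMIs.

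UMIs of the early genes were spread over neutrophils in a gapped way. Neutrophils were placed in 3 ranges by the sum of *Ngp*, *Camp* and *Ltf*: fewer than 3 UMIs (low), 3 UMIs or more but under 5% of the cell's UMIs (middle), and 5% or more (high). The limit of 5% was set after the values were seen, in the gap between the highest middle and the lowest high cell, which lay at 2.92% and 7.5%, 2.94% and 5.41%, and 1.29% and 8.08%. The low range held 61, 22 and 7 neutrophils, the middle range 4, 12 and 16, and the high range 7, 16 and 20. As shares, the high range was 9.72% (4.0 to 19.0), 32% (19.5 to 46.7) and 46.5% (31.2 to 62.3) of the neutrophils, and it held 99.3%, 97.0% and 98.1% of all their early-gene UMIs.

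The high cells were deep, with medians of 11094, 14501 and 15171 UMIs against 2201, 3416.5 and 4110 in low cells. They were not all so: high cells of 1030, 528 and 526 UMIs were present too. Barcodes shared with another library made up 5 of 7, 11 of 16 and 15 of 20 high cells, against 0, 1 and 0 low cells. The 10 members together made up 8.87% of neutrophil UMIs in the vehicle library and a mean of 32.6% in the niacin libraries once every shared barcode was removed. Shared entries of neutrophil barcodes had medians of 880.5, 869.5 and 732.5 UMIs, of which 41.3%, 48.1% and 50.3% were member UMIs, close to the 51.3%, 49.9% and 53.4% in the entries kept. The median ratio of UMIs between the kept and the other entry was 20.6, 15.2 and 22.6, and in the vehicle library 4 entries had a ratio under 2.

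Cells of the high range had similar levels of *Ngp* and *Camp* in the 3 libraries. *Ngp* stood at 46972, 49335 and 49172 CPM in them and *Camp* at 41179, 43331 and 48075 CPM. *Ltf* stood at 18652, 14261 and 13623 CPM, highest in the vehicle library. *Lcn2*, which is not part of the range rule, followed, at 15584, 21832 and 17034 CPM in high cells against 313, 3183 and 1871 CPM in low ones. *Wfdc21* did so too, at 7778, 6821 and 7044 CPM in high against 250, 1831 and 2360 CPM in low cells.

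*Retnlg* and *Mmp8* took another course in the niacin libraries. *Retnlg* stood at 21646 and 25360 CPM in low, 35006 and 43350 in middle, and 4045 and 1680 CPM in high cells of niacin replicates 1 and 2. At least 1% of a cell's UMIs came from it in 12 of 12 and 16 of 16 middle cells, but in 4 of 16 and 2 of 20 high cells. The vehicle library had no such peak, with 1211, 2660 and 2232 CPM in low, middle and high cells, and the middle value rests on 4 cells. *Mmp8* was also highest in middle cells of the niacin libraries, at 3483 and 4174 CPM against 1373 and 1211 CPM in high ones. *Mmp9* stood at 3224 and 3039 CPM in middle and 977 and 993 CPM in high cells there, with 4352 and 1575 CPM in the vehicle library.

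**Figure D2:**
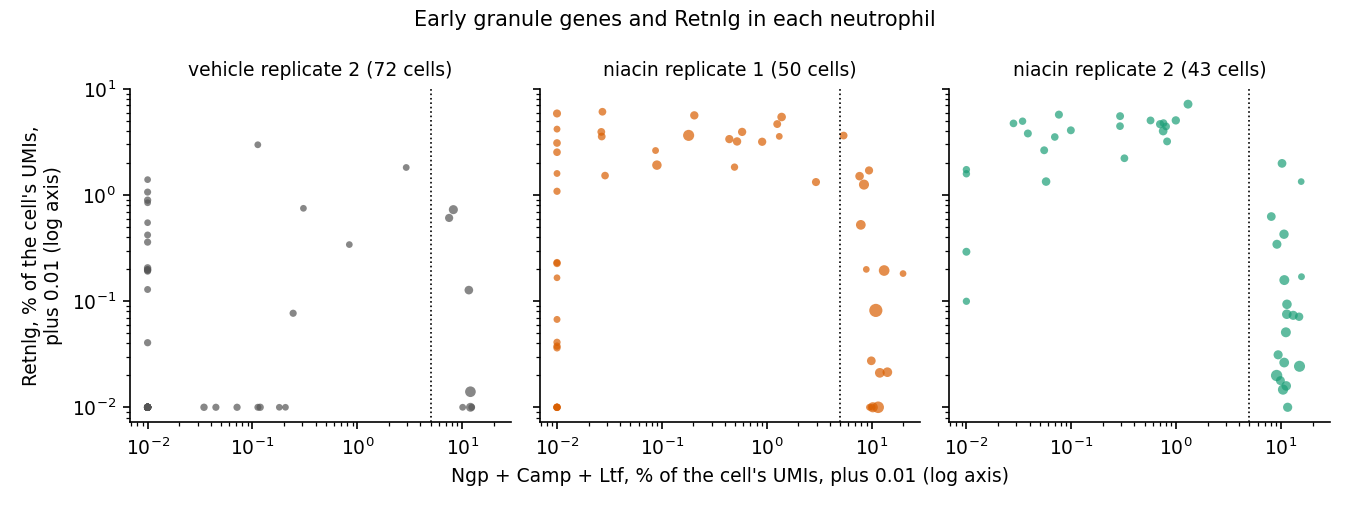
Each point is 1 neutrophil, with *Ngp*, *Camp* and *Ltf* as a percent of its UMIs on the x axis and *Retnlg* as a percent of its UMIs on the y axis (both log axes, 0.01 added), larger points having more UMIs, and the dotted line marking 5% of the cell's UMIs. In the niacin libraries all 12 and all 16 cells of the middle range have at least 1% *Retnlg*, and to the right of the line *Retnlg* spans values from 0 upward.

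Calprotectin RNA separated the libraries within the low range. *S100a8* and *S100a9* together made up a median of 1.64%, 10.0% and 25.2% of a low cell's UMIs. In high cells the medians were close, at 33.6%, 35.5% and 39.5%. *S100a8* stood at 14888, 89276 and 111287 CPM in low cells and at 182107, 184705 and 196658 CPM in high cells. *S100a9* stood at 16029, 105286 and 117850 CPM in low and at 182970, 190725 and 200678 CPM in high cells. None of the 61 low vehicle cells reached 20% of its UMIs in the pair, while 8 of 22 and 5 of 7 low niacin cells did.

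**Figure D3:**
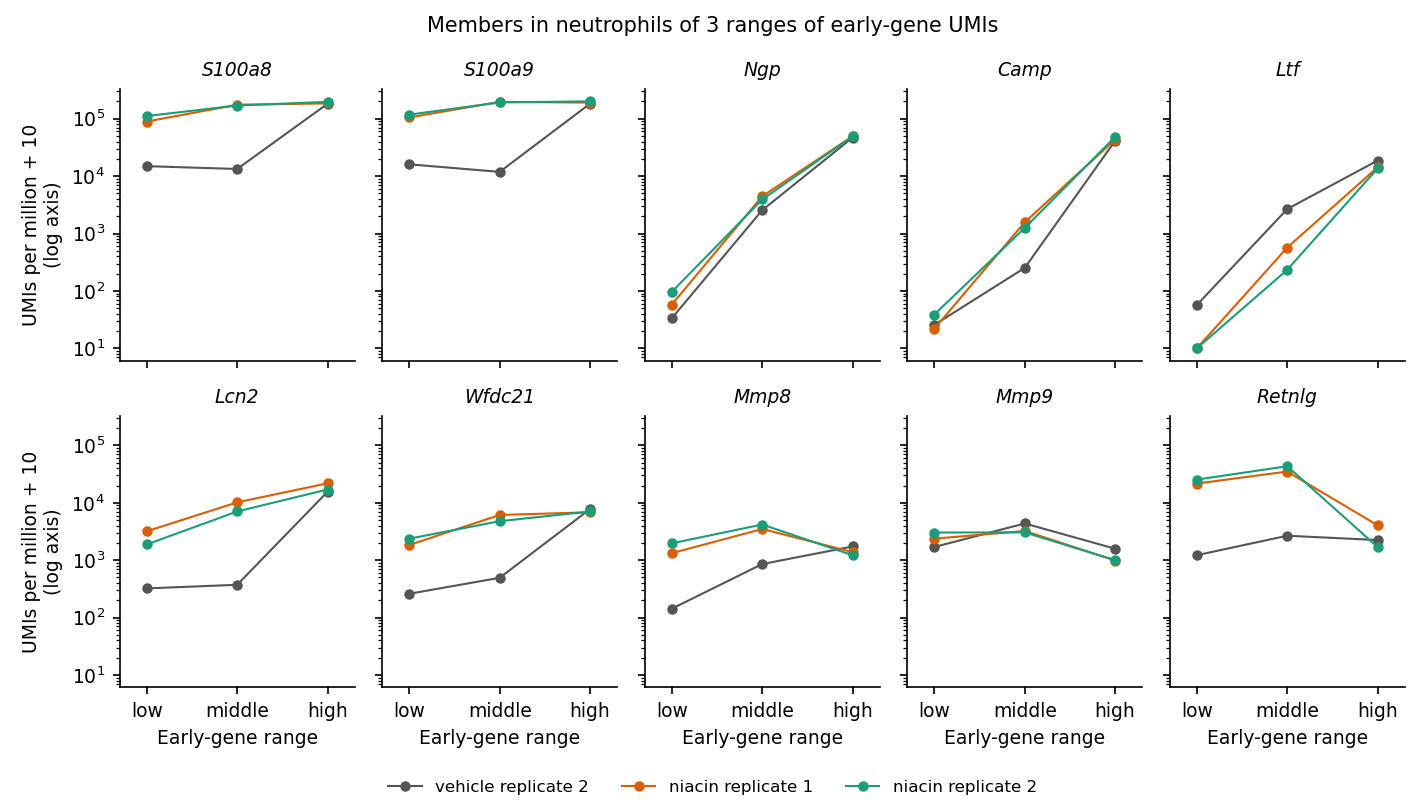
Level of each member (CPM plus 10, log axis) in the pooled neutrophils of the low, middle and high early-gene range of each library (61, 4 and 7 cells in vehicle replicate 2, 22, 12 and 16 in niacin replicate 1, 7, 16 and 20 in niacin replicate 2). The lines meet at the high range for most members and part in the low range, where the vehicle library is lower for *S100a8*, *S100a9*, *Lcn2*, *Wfdc21*, *Mmp8* and *Retnlg*.

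Over the neutrophils of a library, many members went together in pairs. As a description across cells that share a library and differ in depth, Spearman's rho of UMI shares was 0.79, 0.92 and 0.85 between *Ngp* and *Camp* (72, 50 and 43 cells), and 0.90, 0.94 and 0.89 between *S100a8* and *S100a9*. *Lcn2* went with *Ngp*, at 0.70, 0.84 and 0.90. *Mmp8* went with *Retnlg*, at 0.71, 0.55 and 0.70. *Camp* and *Retnlg* had a rho of 0.18, -0.23 and -0.68, *Ngp* and *Retnlg* one of 0.40, -0.09 and -0.58, and *Lcn2* and *Retnlg* one of 0.59, 0.02 and -0.58. *Mmp8* and *Ngp* had 0.51, 0.25 and -0.29, so that values below 0 across the pairs named so far were present in the niacin libraries and not in the vehicle library. *Mmp9* stood apart from most members in the vehicle library, with a rho of -0.08 to *Camp*, -0.04 to *Ltf* and 0.07 to *Ngp*. Its highest rho there was 0.27, with *Mmp8*.

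Early and late genes were present in the same cells at different shares. At 1000 UMIs per cell, at least 1 UMI of an early gene (*Ngp*, *Camp*, *Ltf*) and 1 of a late gene (*Retnlg*, *Mmp9*) were found in 6 of 50 vehicle neutrophils (12%, 4.53 to 24.3), 20 of 44 in niacin replicate 1 (45.5%, 30.4 to 61.2) and 24 of 42 in niacin replicate 2 (57.1%, 41.0 to 72.3). Early genes without late ones were found in 4, 4 and 7 neutrophils, late genes without early ones in 27, 18 and 11, and neither in 13, 2 and 0. Without thinning, both were found in 16 of 72 (22.2%), 32 of 50 (64%) and 39 of 43 (90.7%), so the size of the share depends on depth, while the order of the libraries was the same with and without thinning.

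The same reading was made in lymphocytes, which should lack these genes. Of 244, 137 and 172 lymphocytes thinned in the same way, 2, 1 and 1 had both an early and a late UMI, and 3.69%, 5.11% and 4.07% had an early one. Early genes made up 0.00133%, 0.00306% and 0.00299% of all lymphocyte UMIs. Neutrophils of the middle range had medians per cell of 0.532%, 0.542% and 0.436%. That range was picked for at least 3 early UMIs, which sets its values above the lymphocyte level in advance. When at least 3 UMIs of each set were asked for, the share with both was 6% in the vehicle library and a mean of 33.8% in the niacin libraries.

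**Figure D4:**
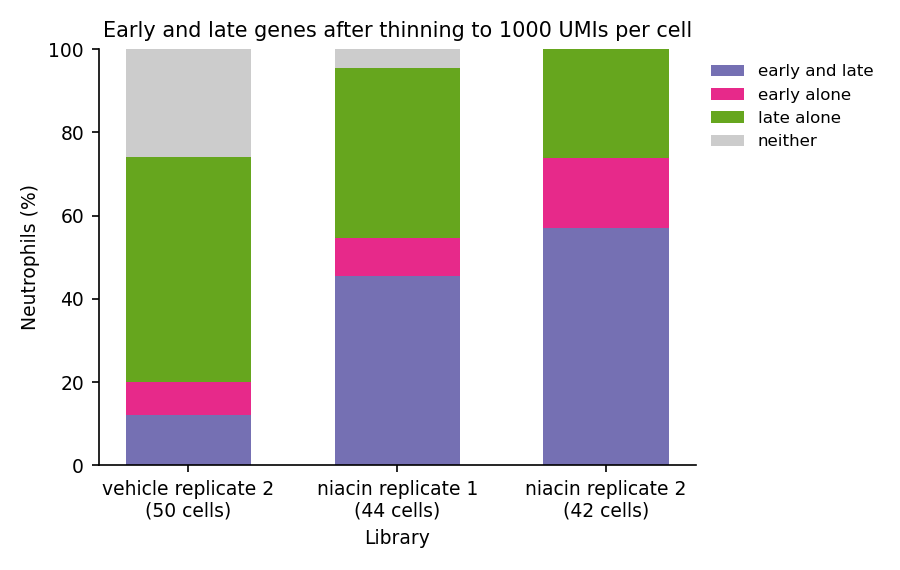
Share of neutrophils (percent, y axis) with UMIs of early genes, late genes, both or neither in each library, after each cell was thinned to 1000 UMIs (50, 44 and 42 cells). Cells with both make up 12%, 45.5% and 57.1%, and cells with late genes alone are the main part of the vehicle library (27 of 50).

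The comparison the design names is niacin against vehicle. The members were chosen with their values in these same 3 libraries known, so this test is not independent of that choice. All 10 members were higher in the niacin neutrophils by edgeR, with log2 changes from 0.81 to 4.01, but none passed an adjusted p of 0.05. The adjusted p-values ran from 0.0510 to 0.114. Of the 4824 genes tested, 0% passed, and 1125 had an unadjusted p under 0.05. By unadjusted p under 0.05, 10 of 10 members were higher, against 12.6% of all genes. The spread came from 2 niacin libraries and from a spread that edgeR shares across all genes. The single vehicle library was assumed to vary as the niacin libraries do.

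*Retnlg* had the largest change, log2 4.01 (SE 0.21, adjusted p = 0.0510), and ranked 1 of the 283 genes with at least 500 CPM in a library. Its niacin mean of 15064 CPM (SD 1034, n = 2) was 9.27 times the vehicle value. The log2 change of *Mmp8* was 2.27 (SE 0.21, adjusted p = 0.0654), that of *Lcn2* 2.13 (SE 0.19), of *S100a9* 2.12 (SE 0.20), of *S100a8* 2.05 (SE 0.21) and of *Wfdc21* 1.83 (SE 0.20), all with the same adjusted p. In each of these the niacin values lay above the vehicle value and close to each other.

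The early genes had smaller values. The log2 change of *Camp* was 1.77 (SE 0.30, adjusted p = 0.0912), that of *Ngp* 1.70 (SE 0.24, adjusted p = 0.0832) and that of *Ltf* 1.15 (SE 0.22, adjusted p = 0.101). *Mmp9* had the smallest change, log2 0.81 (SE 0.18, adjusted p = 0.114).

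The sizes depend on how the libraries are scaled. TMM scaling, a trimmed mean over genes, set the median change of all genes at -0.00426 and of the members at 1.94. With scaling by total UMIs alone, the median of all genes moved to -0.80, that of the members to 1.14, *Ltf* to 0.35 and *Mmp9* to 0.01, so that *Mmp9* then did not differ by UMI share (1764 CPM on average, SD 120, n = 2, against 1754). Relative to the median gene the members' changes are those of the TMM fit.

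DESeq2 on the same sums called 9 of 10 members higher, all but *Mmp9*, against 1.68% of all genes, with no adjusted p for 3086 genes of low counts. Early-positive neutrophils (at least 3 early UMIs) hold 81295 of 209250, 357079 of 440651 and 427971 of 462710 of the UMIs in these sums. In a fit without them, added after the data were seen, 7 members had enough counts, over sums of 61, 22 and 7 cells. *Ngp*, *Camp* and *Ltf* made this split and the other members were chosen with them, so only sizes of change are given. *Mmp9* changed by log2 1.11. *Retnlg* changed by log2 4.72, *Mmp8* by 4.03, *Wfdc21* by 3.50, *Lcn2* by 3.48, *S100a9* by 3.25 and *S100a8* by 3.20. Without the 5 deepest neutrophils of each library, 10 of 10 members were called higher, against 12.3% of all genes.

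Levels are given next for both kinds of cell. In early-negative neutrophils (61, 22 and 7 cells) *Retnlg* stood at 1211, 21646 and 25360 CPM, 19.4 times higher in the niacin mean. *Mmp8* was 12.3 times, *Wfdc21* 8.38, *Lcn2* 8.08, *S100a9* 6.96 and *S100a8* 6.74 times higher there, and *Mmp9* 1.59 times. In early-positive neutrophils (11, 28 and 36 cells) *Retnlg* was 6.12 times higher, while *S100a8*, *S100a9*, *Lcn2*, *Mmp8*, *Wfdc21*, *Mmp9*, *Ngp* and *Camp* had ratios between 0.833 and 1.26 and *Ltf* one of 0.573. The ratios differed most for *S100a8*, *S100a9*, *Lcn2*, *Mmp8* and *Wfdc21*, but neither they nor the difference between the kinds of cell was tested. Treatment, the depth of the neutrophils and the shared barcodes cannot be told apart in 3 libraries of which 1 is vehicle.

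**Figure D5:**
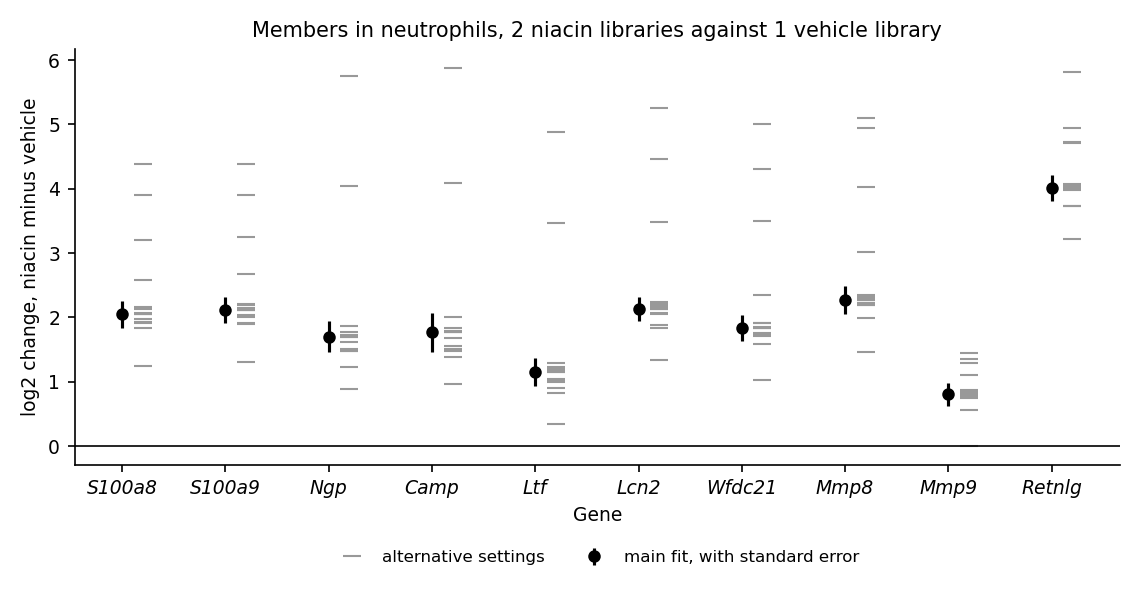
Log2 change of each member in neutrophils, niacin (2 libraries) minus vehicle (1 library), in the edgeR fit of the text (black points with standard errors) and under each alternative setting (grey dashes). All values lie above 0, the lowest being *Mmp9* at 0.01 with scaling by total UMIs alone, and *Retnlg* has the highest black point, at 4.01.

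Other neutrophil genes were taken as 6 lists, and none of their genes passed an adjusted p of 0.05 between niacin and vehicle. The median log2 change was 1.81 over the 18 tested specific, gelatinase and secretory granule genes outside the members, 2.09 over the 16 immature neutrophil genes and 0.26 over 10 granulopoiesis transcription factors. It was -1.42 over the 24 mature and activated neutrophil genes, of which 7 were higher, and -0.33 over 9 genes of tumor-associated neutrophils. Of the 6 primary granule genes only *Ms4a3* could be tested (log2 change 2.74). The median of all genes was -0.00426. Some genes belong to several lists, so the medians are not independent of each other.

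Early-positive and early-negative neutrophils were then compared within libraries, to see what else moved with the early granule genes. Of 1345 genes tested by edgeR with library as a block, 381 passed an adjusted p of 0.05, 188 higher (14%) and 193 lower (14.3%) in early-positive cells. All 10 members are among the genes tested, and 6 of them are among the 188 higher. Their results are not read as a test, since *Ngp*, *Camp* and *Ltf* made the split and the others were chosen with them. The early-negative sum of niacin replicate 2 rests on 7 cells, and early-positive cells were deeper in each library (medians of 3688 against 2201, 9431.5 against 3416.5 and 11483 against 4110 UMIs). The count was 0 without niacin replicate 1, where 428 genes still had an unadjusted p under 0.05, 55 when each cell was thinned to 1000 UMIs and 52 without shared barcodes.

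Other granule genes were higher with the early genes. Of 16 tested genes of specific and gelatinase granules and secretory vesicles, 12 rose and 0 fell (median log2 1.76, all genes -0.00956). Of all genes tested, 14% rose and 14.3% fell. *Chil3*, a chitinase-like protein stored in granules, stood at 5043, 6015 and 5430 CPM in early-positive and at 109, 23.9 and 0 CPM in early-negative cells (log2 7.37, SE 0.61, adjusted p = 0.000103). *Cybb*, the catalytic subunit of the phagocyte NADPH oxidase, rose by log2 4.22 (SE 0.53) and *Lyz2*, a lysozyme, by 2.86 (SE 0.71). *Slpi*, a protease inhibitor, had a log2 change of -0.59 (adjusted p = 0.160).

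Genes of immature neutrophils moved with them, 12 of 12 tested being higher (median log2 3.64), against 14% of all genes. The lists overlap: *Cd177*, *Chil3*, *Itgb2l*, *Serpinb1a* and *Ceacam10* are also in the granule list, and *Cebpe* is also among the transcription factors. *Serpinb1a*, an inhibitor of neutrophil serine proteases, stood at 652, 765 and 626 CPM in early-positive and at 7.82, 0 and 0 CPM in early-negative cells (log2 7.83, SE 0.56, adjusted p = 4.14e-05). *Fcnb*, a ficolin of immature myeloid cells, and *Orm1*, an acute-phase glycoprotein, were at 0 in all early-negative sums and at 172, 154 and 136 CPM and 98.4, 168 and 152 CPM in early-positive ones. Both therefore passed the filter on counts through the early-positive cells alone. Against a floor of 3 counts over the group they were at least 12.03-fold and 12.6-fold higher. *Ceacam10* only just passed (log2 1.72, adjusted p = 0.0499). By CPM it ran the other way in niacin replicate 2, at 140 in early-positive and 202 in early-negative cells. So did *Itgam* of the granule list there, at 591 and 633 CPM. The proliferation genes *Mki67*, *Top2a* and *Stmn1* were too low to be tested.

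Of 7 tested transcription factors 1 was higher and 2 were lower, against 14% and 14.3% of all genes. *Cebpe*, which drives specific granule genes, stood at 480, 445 and 320 CPM in early-positive and at 31.3, 11.97 and 0 CPM in early-negative cells (log2 5.18, SE 0.47, adjusted p = 0.000171). *Cebpb*, the C/EBP factor of mature and emergency granulopoiesis, fell by 1.40 and *Klf2* fell by 0.93 on the log2 scale. None of the 6 primary granule genes was high enough to be tested.

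Genes of mature and activated neutrophils ran the other way, with 0 of 17 higher and 11 lower (median log2 -1.47), against 14% and 14.3% of all genes. *Il1b*, the cytokine interleukin-1 beta, stood at 308, 30.8 and 63.1 CPM in early-positive and at 4619, 2585 and 892 CPM in early-negative cells (log2 -3.89, SE 0.48, adjusted p = 0.00076). *Ccl6* fell by 2.62, *Csf3r* by 2.10 and *Cxcr2* by 1.47 on the log2 scale. Of 4 tested genes of tumor-associated neutrophils *Jaml*, a junctional adhesion molecule, was lower (log2 -3.02). The other genes with the largest falls were *Zfp36l1* (log2 -3.89), *Gm13822* (-3.41), *Hist1h4i* (-3.35) and *Tspan13* (-3.32), the highest adjusted p among them being 0.00139 by edgeR. Among the markers that called the cells neutrophils are 6 of the 16 immature genes, 6 of the 20 granule genes and 11 of the 24 mature genes.

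Outside neutrophils the members were present at low levels that differed between genes and classes. Neutrophils held 95.5%, 98.4% and 98.9% of all member UMIs while holding 2.96%, 5.39% and 5.19% of all UMIs. In 255, 147 and 175 lymphocytes (T, natural killer and B cells) the members made up 0.0133%, 0.0355% and 0.0211% of UMIs, which is 0.0676%, 0.0806% and 0.0433% of the level in neutrophils. At least 1 member UMI was present in 44.7%, 82.3% and 64.6% of lymphocytes, but at most 4, 9 and 13 UMIs in any, and 0 lymphocytes in each library had 3 early-gene UMIs.

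The mix of members in lymphocytes was set beside that in neutrophils. *S100a8* and *S100a9* made up 75.6%, 81.0% and 63.5% of member UMIs in lymphocytes and 74.6%, 77.3% and 77.0% in neutrophils, so that niacin replicate 2 differed most. *S100a9* in lymphocytes stood at 57.8, 164 and 69.9 CPM, and in microglia of the niacin libraries at 165 and 102 CPM. *Mmp9* stood out, at 8.16, 13.5 and 24.5 CPM in lymphocytes, which is 0.465%, 0.727% and 1.46% of its neutrophil level, and 12 of the 27 *Mmp9* UMIs of niacin replicate 2 came from 1 cell. *Mmp8* had 1, 0 and 1 UMIs in lymphocytes, and the 0 in niacin replicate 1 allows a level of up to 3.67 CPM (3 counts).

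Across cell classes, genes with a pattern like the members were looked for over 22 pairs of class and library with at least 20 cells each. Among 1495 genes with at least 50 CPM in the neutrophils of each library, the highest Pearson correlation of log2(CPM + 10) with the mean of the members was 0.997 for *Stfa2l1*, a stefin. *Cebpe* followed at 0.996, *Itgb2l*, an integrin subunit of granulocytes, at 0.995, *Dhrs9* at 0.994 and *1700047M11Rik* at 0.993. These are descriptions over points that share libraries, and *Stfa2l1*, *Cebpe* and *Itgb2l* are themselves class markers.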

How the data were processed

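Droplet scRNA-seq of 3 mouse GBM libraries was analyzed. The deposited files hold raw UMI counts per gene and barcode, which the authors made with Cell Ranger 3.1 (STAR, mm10), without normalization. Following the study's filter, a cell needed 200 genes with a UMI and at most 20% of its UMIs from mitochondria, and a barcode found in several libraries was kept where it had the most UMIs. Doublets were not called. A class needed at least 3 detected markers and at least 2 times the markers of any other class, a fold chosen after seeing the data, as was the 5% limit of the early-gene ranges. The members and gene lists were chosen with earlier results of these data known.

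CPM are counts per 1e+06 UMIs of the class in a library. Counts summed per library were tested with edgeR 4.0.16 in R 4.3.3 (quasi-likelihood test, TMM, filterByExpr, Benjamini-Hochberg adjustment over all genes tested, two-sided), with DESeq2 1.42.0 as an alternative. Niacin against vehicle left 1 residual degree of freedom. Early-positive against early-negative sums had library as a block. Where p-values are given, they rest on the spread between pooled libraries and on a spread that the fit shares across genes. Standard errors were taken from the log2 change and the F statistic. On simulated counts, the niacin fit recovered 73.5% of 4-fold and 88.7% of 8-fold changes over 4577 genes, with 4.24% false calls, and the early-positive fit 100% of both over 830 genes, with 4.78%. These counts were drawn with 1 fixed spread for all genes, which was not estimated from the data. The rates check the code and do not give the power or error of the fits on these libraries.

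Named were all members, 2 to 4 genes per list with those that passed, and the 5 genes most like the members. Also named were the 5 largest changes in each direction among genes outside the members. These had an adjusted p under 0.05, a mean of at least 50 CPM and 1 direction in every library. Thinning drew 1000 UMIs per cell (seed 1). Alternatives changed 1 choice at a time. Promoter windows were read from RefSeq tables (GRCm38.p6, the assembly of mm10) and gene positions from the GENCODE annotation of GRCm38. The other data of the paper were not analysed here.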

Additional observations from a re-analysis of the deposited data

Results flagged for a closer look

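By share of UMIs, *Mmp9* and *Retnlg* differed in opposite directions between the 2 kinds of neutrophil in the vehicle and the niacin group. The log2 ratio of CPM, early-positive over early-negative neutrophils, was 0.14 for *Mmp9* in the vehicle library, and -0.45 and -0.94 in niacin replicates 1 and 2. For *Retnlg* it was 0.91 in the vehicle library, and -0.59 and -0.92 in niacin replicates 1 and 2. By this ratio, which scales by total UMIs, each group moved one way and the other group the opposite way in every library. The difference was not tested and depends on the scaling. In the edgeR fit with TMM over the 3 libraries, the log2 change was 0.31 for *Mmp9* and 0.51 for *Retnlg*. The TMM factors were 0.746 in early-positive and 1.22 in early-negative cells of niacin replicate 1, and 0.734 and 1.24 in niacin replicate 2. The vehicle values rest on 1 library with 11 early-positive cells, and the early-negative value of niacin replicate 2 on 7 cells.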

How the results depend on the processing

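Niacin against vehicle called 0 genes in neutrophils. It called 278 with every barcode kept in every library, 288 without barcodes shared between libraries, 839 with no limit on mitochondrial UMIs, 139 with more markers than any other class in place of the 2-fold rule, 127 without early-positive neutrophils, 925 without the 5 deepest neutrophils of each library, 136 with DESeq2 and 1522 without TMM (6.9% of these higher). It called 0 under the other 5 alternatives. Of 147 member values under these alternatives all were higher in niacin. Passes of members are not counted here, because each fit rests on 1 vehicle library and the members were chosen with these data known. The fit without early-positive neutrophils was also split by *Ngp*, *Camp* and *Ltf*. The log2 change ran from 3.21 to 5.81 for *Retnlg* and from 0.01 to 1.45 for *Mmp9*, and without niacin replicate 1 or 2, where no test is left, it was 3.98 and 4.04 for *Retnlg* and 2.00 and 1.48 for *Camp*. No paired analysis was possible because no label pairs a vehicle library with a niacin library.

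Early-positive against early-negative neutrophils gave 381 calls with library as a block and 342 with no replicate block. The count was 52 without shared barcodes, 12 without neutrophils with 3 or more markers of another class, 111 without the 5 deepest neutrophils, 55 with each cell thinned to 1000 UMIs and 681 without TMM, where 13.5% were higher against 49.3%. Leaving out 1 library each gave 0 to 474 calls (0 without niacin replicate 1).

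The share with early and late UMIs was 12% in vehicle and 4.44% without the 5 deepest neutrophils. The niacin mean of 51.3% was 77.3% with no thinning, 60.3% at 2000 UMIs and 33.8% with at least 3 UMIs of each. It was 38.4% without shared barcodes and 29.5% without cells with markers of another class, but there the niacin libraries differed widely. Without shared barcodes the 3 libraries had 8.89%, 20.8% and 56%. Without cells with markers of another class they had 5.26% (2 of 38), 9.09% (1 of 11) and 50% (7 of 14), so niacin replicate 1 lay near the vehicle library. The niacin mean of 46.5 neutrophils per library was 28 without shared barcodes and 15 without cells with markers of another class.

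The members' share of neutrophil UMIs was 19.7% in vehicle. It was 21.8% with every barcode kept, 8.87% without shared barcodes, 19.0% and 20.6% at 2 and 5 markers, 3.50% without cells with markers of another class, 18.7% with more markers than any other class, 3.46% without early-positive neutrophils and 3.93% without the 5 deepest. The niacin mean of 46.4% was 32.6%, 31.0%, 41.6% and 24.4% without shared barcodes, without markers of another class, with more markers than any other class and without early-positive neutrophils. In lymphocytes of the vehicle library 0.0133% was 0.0170% without shared barcodes and 0.0160% with no mitochondrial limit. The cause of these shifts was not tested. The alternatives with more markers than any other class, without early-positive neutrophils and without the 5 deepest were chosen after seeing the data. With 165 neutrophils, the niacin fit depends on few cells.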

Other observations

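Some members stood above their lymphocyte level in other classes, partly through single cells. *Lcn2* stood at 121 CPM in the 37 choroid plexus cells of vehicle replicate 2 (27 UMIs, 13 of them in 1 cell), 40.7 times its level in lymphocytes of that library. With each cell thinned to 1000 UMIs it was present in 6.06% of these choroid plexus cells and in 0.820% of lymphocytes. Of 47 *Lcn2* UMIs in the microglia of vehicle replicate 2, 37 came from 1 cell. *Mmp8* had 46 UMIs in the monocytes, macrophages and dendritic cells of vehicle replicate 2, 17 of them in 1 cell (30.2 CPM, 40.7 times the level in lymphocytes, which had 1 UMI). In niacin replicate 2 it had 11 UMIs in 43 such cells, at most 4 in 1 cell (24.8 CPM, 27.3 times the level in lymphocytes, which had 1 UMI), and in niacin replicate 1 it had 0 in 20 cells.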
